A study of Mus musculus with 6 samples.

Results

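The epithelial cell adhesion genes followed here were Cdh1, Epcam, Dsp, Dsg2, Dsc2, Pkp2, Pkp3, Jup and Spint1, a list of adherens junction, desmosome and epithelial surface genes. Each of the 9 genes had a single probe set (called a probe here) that named no other gene, so all 9 were measured, among 19938 genes with such a probe. Expression was measured on Affymetrix arrays in whole lung buds of mouse embryos at E11.5, of a mixed C57BL/6, 129X1 and 129S1 background. The 3 control samples carried Shhcre, which expresses Cre recombinase from the Sonic hedgehog locus, active in lung epithelium. The 3 DKO samples carried Shhcre with Hdac1fl/fl and Hdac2 fl/fl, that is, with both alleles of these histone deacetylase genes floxed, so both groups carried the Cre allele. Cre acts in the epithelium, while the RNA came from the whole bud with its mesenchyme, vessels and blood. The labels call the samples biological replicates and do not give the number of embryos in each, so a p-value here reflects the scatter of these 6 arrays, which may be partly technical.

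Epithelial cells are held together by adherens junctions and desmosomes. In an adherens junction, E-cadherin binds its like on the neighbouring cell and is linked by catenins to actin. In a desmosome, the cadherins desmoglein and desmocollin are linked by plakoglobin and plakophilins to desmoplakin, which anchors keratin filaments. Epcam is a surface glycoprotein of most simple epithelia, and Spint1 (also called HAI-1) is a membrane inhibitor of the epithelial serine protease matriptase and its relatives. In the lung bud these genes mark the branching epithelial tube, and several desmosome genes are also used by heart muscle.

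Values are log2 levels, and changes are DKO minus control on the log2 scale with the standard error (SE) of limma. A gene was called changed at an adjusted p under 0.05, adjusted by the Benjamini-Hochberg method over all 19938 genes. The arrays correlated at r of 0.995 to 0.999 over all genes, and the median SD of a gene was 0.055 among controls and 0.080 among DKO. Hdac1 fell by 0.28 (SE 0.05, adjusted p = 0.0193), a call that held when DKO 2 was left out and failed when any other array was (adjusted p up to 0.112). Hdac2 stood at -0.04 (SE 0.06, adjusted p = 0.845). Whether these probes lie in the floxed exons was not determined here. Nkx2-1, the defining transcription factor of lung epithelium, read 10.53 to 10.60 in controls and 10.20 to 10.44 in DKO. Tbx4, a factor of lung mesenchyme, read 11.37 to 11.42 in controls and 11.36 to 11.41 in DKO.

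Epcam fell in the DKO buds, and none of the other 8 genes passed the threshold. All 9 changes were below 0, from -0.50 for Epcam to -0.03 for Dsc2, with a median of -0.22, while the median over all genes was 0.00. The 1 of 9 genes called lower compares with 1.38% of all genes. Over all genes 1.03% were called higher, and 2.41% in either direction. Without overlap between the groups, 5 of the 9 genes were lower in DKO: Epcam, Spint1, Dsp, Dsg2 and Cdh1. Over all genes, 10.4% were lower and 8.36% higher without overlap. An unadjusted p under 0.05 was reached by the same 5 genes. The share of all genes with an unadjusted p that low was not counted, so such counts have no comparison here. In a bulk sample, fewer epithelial cells and less RNA of a gene per epithelial cell cannot be told apart.

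Epcam read 9.77, 9.98 and 9.93 in controls 1 to 3 and 9.37, 9.40 and 9.40 in DKO 1 to 3. The DKO values lay close together and well under the lowest control, which was control 1. The control mean was 9.89 ± 0.11 (SD, n = 3), and the DKO mean 9.39 ± 0.02 (SD, n = 3). The change was -0.50 (SE 0.06, interval -0.64 to -0.36, adjusted p = 0.00428), or 1.42-fold lower, lower in 3 of 3 DKO samples. Ordered by size of fall, Epcam was at rank 102 of the 19938 genes. Leaving out each array in turn gave changes from -0.56 to -0.46 with the call kept each time (adjusted p at most 0.0285). With ordinary least squares, which estimates each gene's spread from its own 6 values alone, the adjusted p was 0.122.

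Spint1 had the next largest change and did not pass. It read 9.28, 9.22 and 9.35 in controls 1 to 3 and 8.94, 9.09 and 9.06 in DKO 1 to 3. All DKO values were below all control values, with DKO 1 the lowest. The change was -0.25 (SE 0.06, interval -0.39 to -0.12, adjusted p = 0.0779), or 1.19-fold. It passed without DKO 2 (-0.28, adjusted p = 0.0376), where the count over all genes also went up, from 481 to 811. Leaving out any other array did not bring it past the threshold (adjusted p up to 0.299).

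Cdh1, which encodes E-cadherin, read 9.33, 9.45 and 9.48 in controls 1 to 3 and 9.10, 9.28 and 9.24 in DKO 1 to 3. The groups did not overlap, although control 1 lay only slightly above DKO 2. The change was -0.22 (SE 0.07, interval -0.36 to -0.07, adjusted p = 0.168), a 1.16-fold difference that did not pass. Leaving out single arrays moved it between -0.26 and -0.16, with an adjusted p of 0.0718 to 0.486.

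Among the desmosomal cadherins, Dsg2 (desmoglein 2) had lower values in DKO and Dsc2 (desmocollin 2) had overlapping values. Dsg2 read 7.96, 8.05 and 7.98 in controls 1 to 3 and 7.69, 7.76 and 7.86 in DKO 1 to 3. The groups were separate, with DKO 3 nearest to the controls. The change of Dsg2 was -0.22 (SE 0.06, interval -0.36 to -0.09, adjusted p = 0.112). Dsc2 read 8.03, 7.88 and 7.88 in controls 1 to 3 and 8.01, 7.83 and 7.84 in DKO 1 to 3. Replicate 1 was the high sample in each group, and the ranges were nearly the same. The change of Dsc2 was -0.03 (SE 0.07, interval -0.19 to 0.12, adjusted p = 0.913), and it ran from -0.09 without DKO 1 to 0.02 without control 1.

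Of the plaque genes, Dsp had just separate groups, and Jup, Pkp2 and Pkp3 had overlapping ones. Dsp encodes desmoplakin, which ties the plaque to keratin filaments. It read 9.45, 9.30 and 9.36 in controls 1 to 3 and 9.04, 9.07 and 9.29 in DKO 1 to 3. DKO 3 came close below control 2, which was the lowest control. Its change was -0.24 (SE 0.08, interval -0.41 to -0.06, adjusted p = 0.197), and it was -0.31 without DKO 3 and -0.12 with array weights, which downweight noisier arrays.

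Jup encodes plakoglobin, a relative of beta-catenin found in both desmosomes and adherens junctions. It read 10.02, 9.88 and 9.74 in controls 1 to 3 and 9.78, 9.88 and 9.79 in DKO 1 to 3. All 3 DKO values fell inside the range of the controls, which was the widest of the 9 genes. The change was -0.06 (SE 0.07, interval -0.23 to 0.10, adjusted p = 0.813), and it ran from -0.13 without control 3 to 0.00 without control 1. Pkp2 (plakophilin 2) stood at -0.12 (SE 0.06, interval -0.27 to 0.02, adjusted p = 0.472) and Pkp3 (plakophilin 3) at -0.09 (SE 0.06, interval -0.22 to 0.05, adjusted p = 0.637). Control values of Pkp2 were 7.83, 7.99 and 8.04, and DKO values were 7.82, 7.81 and 7.86. Control values of Pkp3 were 7.83, 7.76 and 7.67, and DKO values were 7.60, 7.72 and 7.68. In both genes the lowest control lay inside the DKO range. Leaving out single arrays gave -0.18 to -0.08 for Pkp2 and -0.13 to -0.05 for Pkp3.

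**Figure D1:**
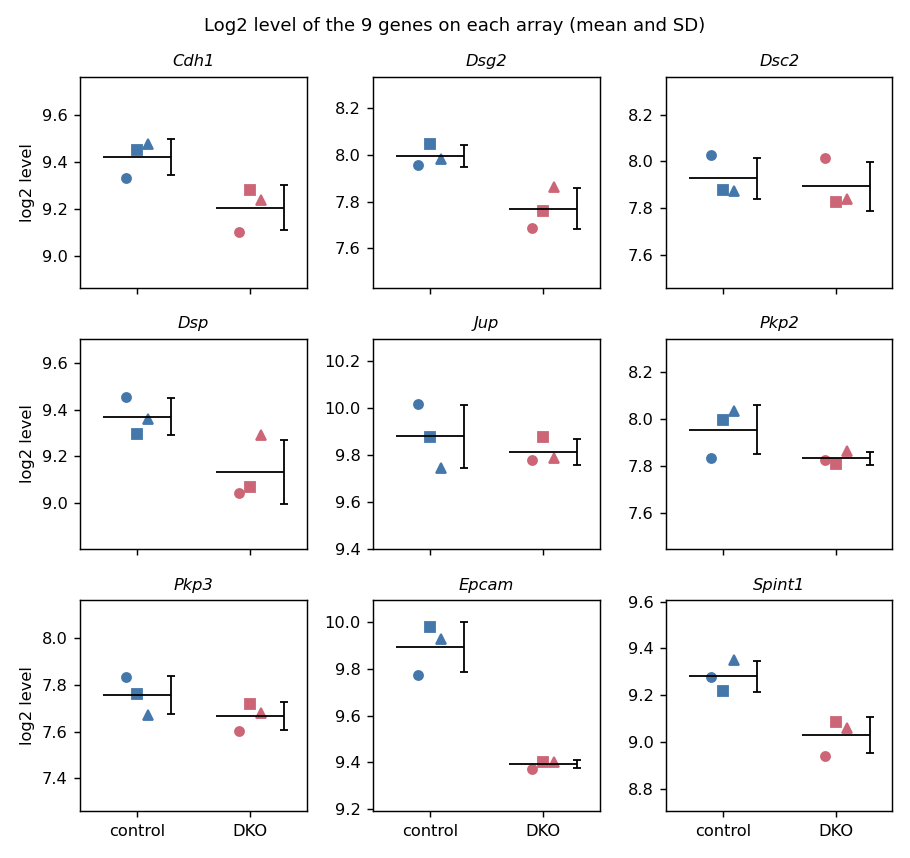
Log2 level of each of the 9 genes on each array, by group, with circles, squares and triangles for replicates 1, 2 and 3, lines for group means and bars for the SD (n = 3 per group). Every panel spans the same range of log2 units around its own centre. The Epcam groups lie far apart, those of Cdh1, Dsg2, Dsp and Spint1 are separate, and those of Dsc2, Jup, Pkp2 and Pkp3 overlap.

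Among the controls, the 9 genes did not move as a block. Control 1 was the highest control for Dsp, Dsc2, Pkp3 and Jup, and the lowest for Epcam, Dsg2, Cdh1 and Pkp2. In the DKO group, DKO 1 was the lowest sample for 7 of the 9 genes and the highest for Dsc2. The interval of Epcam overlapped those of Spint1, Dsp and Cdh1, and did not overlap those of Dsg2, Pkp2, Pkp3, Jup and Dsc2. The other 8 intervals all overlapped each other. In the 36 pairs of genes, the difference between the changes was tested with a two-sided exact permutation test over the 6 arrays, which cannot go below p = 0.10. Epcam against each other gene except Dsp reached that smallest p (adjusted p = 0.45 over the 36 pairs), with differences of 0.25 against Spint1 to 0.47 against Dsc2. Against Dsp, the difference was 0.27 (exact permutation p = 0.30).

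**Figure D2:**
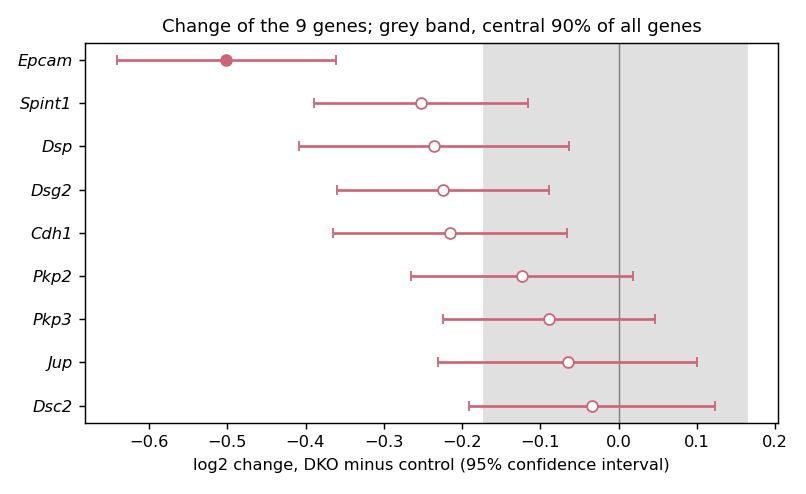
Log2 change of the 9 genes, DKO minus control, with 95% confidence intervals from limma (3 arrays per group) and a filled point for the called gene. The grey band holds the central 90% of all 19938 genes, from -0.17 to 0.16, and Epcam, Spint1, Dsp, Dsg2 and Cdh1 lie below it.

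Several other genes of the lung epithelium fell by more than Epcam did. A reference list of 14 epithelial genes outside the 9, among them keratins, claudins, Foxa factors, Nkx2-1 and Shh, had 9 members that fell and 0 that rose, with a median of -0.56. Rab25, a GTPase of apical recycling, fell 1.85-fold (-0.89, SE 0.06), and Krt18, a keratin of simple epithelia, fell 1.81-fold (-0.86, SE 0.05). Foxa1, a forkhead factor of endoderm, fell by 0.69 (SE 0.07), and the keratin gene Krt7 fell by 0.61 (SE 0.10). The list was not uniform, and 5 of its genes did not pass. These were Cldn3 (-0.28, adjusted p = 0.223), Nkx2-1 (-0.19, adjusted p = 0.299), Ap1m2 (0.00), Crb3 (0.05) and Krt19 (0.08). The count of 9 became 5 without control 2, and the call of Krt7 ended without control 2 or 3. Genes of this list had been seen to fall in an earlier look at the same arrays, so the direction of the list is not independent evidence.

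The mean level of the reference genes was 9.46, 9.54 and 9.49 in controls 1 to 3 and 8.95, 9.13 and 9.14 in DKO 1 to 3, a change of -0.43. DKO 1 was the lowest sample here too. Each adhesion gene was also read relative to this mean on the same array. On that scale 7 of the 9 genes were higher in all DKO samples than in all controls, but so were 95.6% of all genes outside the reference, whose median relative change was 0.43. The reference includes genes known to fall here and its mean fell, so most genes come out higher against it, and nothing is read from the count. Epcam, at -0.08, and Dsp, at 0.19, had overlapping relative values.

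The promoters of 4 of the 9 genes, Epcam, Spint1, Dsp and Jup, were in the RefSeq promoter sequences of mouse build GRCm38.p6. They are shown because they were the ones available, and they were not chosen as a comparison. They cover the 1 called gene, 2 genes with separate groups and 1 with overlapping groups. Each is the 250 bases before the annotated gene start, 5′ to 3′ along the gene: chr17:87635729-87635978 (plus strand) for Epcam, chr2:119237110-119237359 (plus strand) for Spint1, chr13:38151044-38151293 (plus strand) for Dsp and chr11:100397791-100398040 (minus strand) for Jup. Capitals mark CACCTG or CAGGTG, the 2 strands of the E-box core bound by Snail and Zeb repressors, and GGGCGG or CCGCCC, the 2 strands of the GC box.
Epcam: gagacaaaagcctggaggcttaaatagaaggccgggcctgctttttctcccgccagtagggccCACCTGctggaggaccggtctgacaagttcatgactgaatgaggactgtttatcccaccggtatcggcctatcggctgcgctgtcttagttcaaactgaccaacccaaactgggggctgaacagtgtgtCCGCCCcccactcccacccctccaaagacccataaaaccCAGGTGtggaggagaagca
Spint1: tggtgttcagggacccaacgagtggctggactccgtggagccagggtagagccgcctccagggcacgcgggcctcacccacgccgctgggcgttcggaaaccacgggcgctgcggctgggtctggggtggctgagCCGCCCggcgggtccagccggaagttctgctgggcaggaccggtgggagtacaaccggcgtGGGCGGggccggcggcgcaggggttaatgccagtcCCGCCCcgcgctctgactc
Dsp: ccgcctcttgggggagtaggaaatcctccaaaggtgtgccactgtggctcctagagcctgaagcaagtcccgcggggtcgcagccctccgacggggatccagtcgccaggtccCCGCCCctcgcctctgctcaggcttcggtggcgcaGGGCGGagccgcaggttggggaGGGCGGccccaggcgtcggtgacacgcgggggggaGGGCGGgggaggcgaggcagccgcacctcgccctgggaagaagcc
Jup: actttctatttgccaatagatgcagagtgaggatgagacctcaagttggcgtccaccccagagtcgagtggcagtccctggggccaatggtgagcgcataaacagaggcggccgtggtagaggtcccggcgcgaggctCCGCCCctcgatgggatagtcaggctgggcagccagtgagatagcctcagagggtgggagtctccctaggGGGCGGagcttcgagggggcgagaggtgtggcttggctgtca
The Epcam window held 2 of these E-box cores, beginning 187 and 19 bases before the start, and the other 3 windows held 0. Over all 32851 promoters in the table, 17.2% held at least 1 in the same 250 bases. GC boxes were found in all 4 windows, 1 in Epcam, 3 in Spint1, 4 in Dsp and 2 in Jup, against 32.7% of all promoters with at least 1. The GC content was 56.4% for Epcam, 72.8% for Spint1, 72.4% for Dsp and 62.0% for Jup, with a median of 52.4% over all promoters. A match describes the letters only.

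Transcription factors linked to the repression of Cdh1 in cells losing epithelial character, not all of them direct repressors, were mixed. Of 12 measured, Snai2 and Zeb2 rose and Twist2 fell, with a list median of -0.09. Snai2, a Snail family factor abundant in mesenchyme, read 11.69 to 11.81 in controls and 12.00 to 12.08 in DKO (0.28, SE 0.06, adjusted p = 0.0352). Zeb2 read 10.89 to 10.98 in controls and 11.16 to 11.26 in DKO (0.28, SE 0.05, adjusted p = 0.0318). Twist2, a helix-loop-helix factor of mesenchyme, fell (-0.28, SE 0.06, adjusted p = 0.0395). Each of these 3 calls held when DKO 2 was left out and failed when any other array was, with adjusted p up to 0.159 for Snai2, 0.162 for Zeb2 and 0.186 for Twist2. Foxc2, a forkhead factor of mesenchyme, had the largest change of the list, with separate groups, but did not pass (-0.46, SE 0.11, adjusted p = 0.0698). Snai1 (-0.17) and Zeb1 (-0.01), relatives that also repress the E-cadherin gene, did not pass.

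Of 12 regulators that promote epithelial gene expression, 1 fell and 0 rose, with a median of -0.04. Grhl2, a grainyhead factor known to activate Cdh1, read 8.32, 8.51 and 8.40 in controls 1 to 3 and 7.73, 7.79 and 7.88 in DKO 1 to 3. It fell 1.53-fold (-0.61, SE 0.07, adjusted p = 0.00211), against the 1.16-fold difference of Cdh1. The splicing regulators Esrp1 (-0.30, adjusted p = 0.0589) and Esrp2 (-0.34, adjusted p = 0.0615) did not pass. The count of 1 became 0 with ordinary least squares and stayed at 1 when any array but DKO 2 was left out. It became 3 without DKO 2, 4 with array weights and 4 without the dimmest 30% of probes. There the count over all genes also went up, from 481 to 811, 2003 and 572.

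In the membrane protease system around Spint1 and Epcam, the proteases Prss8 and Tmprss2 and the inhibitor Spint2 fell. Of 11 measured genes of this list, 3 fell and 0 rose, with a median of -0.06. Prss8, which encodes prostasin, a protease that works together with matriptase, read 9.17, 9.33 and 9.22 in controls 1 to 3 and 8.23, 8.37 and 8.39 in DKO 1 to 3. It fell 1.88-fold (-0.91, SE 0.06, adjusted p = 0.000256), and the call was kept without each single array. Tmprss2, a transmembrane protease of airway and other epithelia, fell 1.52-fold (-0.61, SE 0.09, adjusted p = 0.00917). Leaving out control 2 ended that call (adjusted p = 0.0578).

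Spint2, the close relative of Spint1 and a further inhibitor of matriptase and prostasin, read 9.57, 9.68 and 9.53 in controls 1 to 3 and 8.98, 9.23 and 9.19 in DKO 1 to 3. It fell 1.38-fold (-0.46, SE 0.08, adjusted p = 0.0153), and leaving out any single control ended the call (adjusted p up to 0.0829). St14, which encodes matriptase itself, stood at -0.06 (SE 0.07, adjusted p = 0.825) with overlapping groups. Cldn7, a claudin that binds Epcam, also stood at -0.07 (SE 0.07, adjusted p = 0.809).

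Catenins link cadherins to actin, and nectins are immunoglobulin-like adhesion receptors that bind afadin at the same junctions. The limma fit called 0 of 12 genes of these junctions, and 1 had an unadjusted p below 0.05. The values ran from -0.12 for Ctnna1 to 0.09 for Ctnnd1 with a median of -0.09 and 9 of 12 below 0. Groups were separate and lower in DKO for 5 of the 12 (Ctnna1, Vcl, Nectin3, Afdn and Ctnnb1) and higher for 0, as against 10.4% and 8.36% of all genes. Ctnna1 encodes alpha-catenin and Ctnnd1 p120-catenin. Ctnnb1, which encodes beta-catenin, read 12.63 to 12.64 in controls and 12.51 to 12.57 in DKO (-0.09, SE 0.05, adjusted p = 0.469).

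Among 10 other cadherins, 1 fell and 0 rose, with a median of -0.03. Cdh16, an atypical cadherin of kidney, thyroid and embryonic lung epithelium, read 7.82, 8.09 and 7.93 in controls 1 to 3 and 7.23, 7.50 and 7.08 in DKO 1 to 3. It fell 1.6-fold (-0.68, SE 0.11, adjusted p = 0.0125), and the call ended when control 2 or 3 was left out (adjusted p up to 0.0668). Cdh2 (N-cadherin, of mesenchyme, nerve and heart) stood at 0.14 (SE 0.05, adjusted p = 0.256) with all DKO values above all controls. Cdh5 (the cadherin of endothelium) stood at 0.20 (SE 0.07, adjusted p = 0.243) with overlapping values. Cdh3, the P-cadherin gene next to Cdh1 in the genome, stood at -0.11 (adjusted p = 0.561).

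Of 10 further desmosome and plaque genes measured, 1 rose and 0 fell, with a median of 0.02. Perp, a tetraspan protein of desmosomes and a target of the p53 family, read 7.10, 7.26 and 7.10 in controls 1 to 3 and 7.62, 7.75 and 7.42 in DKO 1 to 3. It rose 1.36-fold (0.44, SE 0.09, adjusted p = 0.0346), opposite in sign to the 9 genes. Leaving out any control or DKO 1 ended the call (adjusted p up to 0.157). The desmogleins, desmocollins and plakophilins of stratified skin were among the rest, from Dsg3 at -0.06 to Dsc3 at 0.16, and the plakin gene Ppl stood at -0.15 (adjusted p = 0.221). Dsg1b, Dsg4, Dsg1c, Dsg3 and Dsc3 were dim, with mean levels from percentile 7.4 (Dsg1b) to 15.8 (Dsc3) of all genes. Little is read from their changes.

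**Figure D3:**
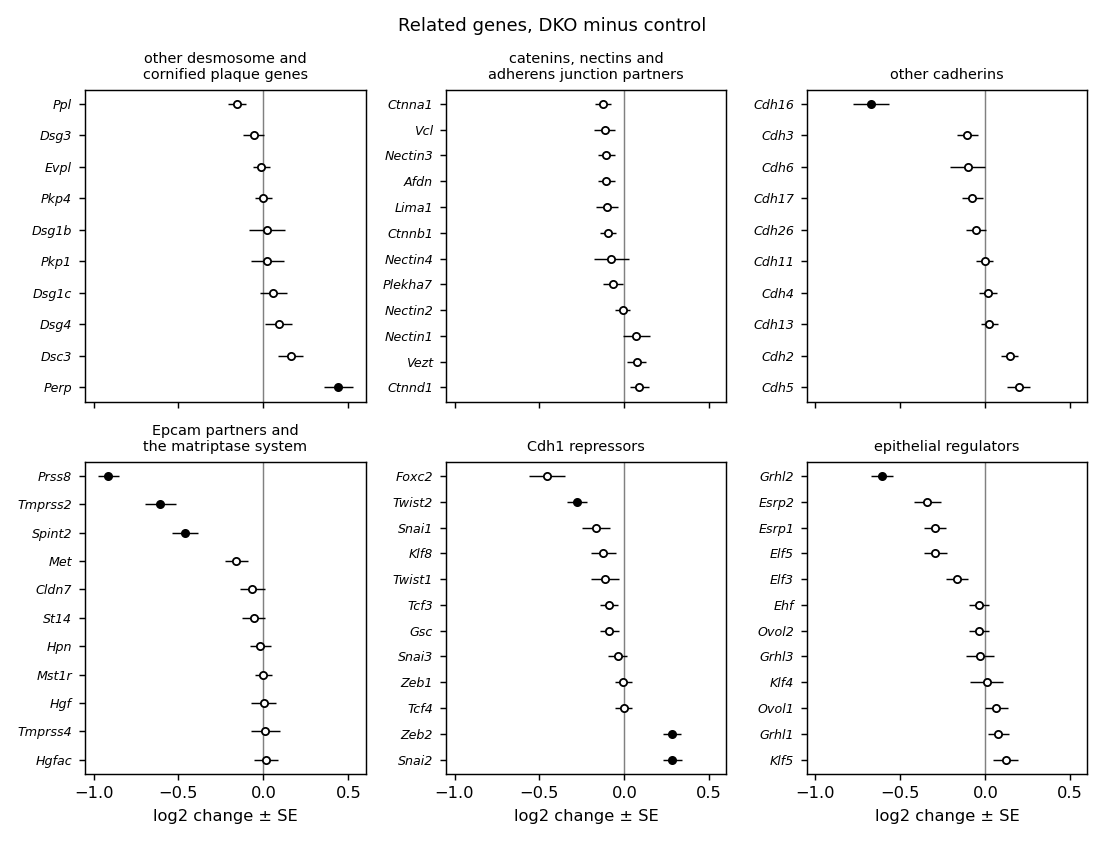
Log2 change, DKO minus control, with the SE from limma (3 arrays per group), for the genes of 6 related lists, with filled points for genes called at the adjusted p over all genes. Prss8, Tmprss2, Spint2, Cdh16 and Grhl2 stand out to the left and Perp to the right, with Foxc2 also far to the left but not called, while the catenins, nectins and their partners lie between -0.12 and 0.09.

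Heart, mesothelium and liver also contain cells with desmosomes, cadherins or Epcam, and some of their markers rose in DKO. Of 17 cardiac muscle genes, 1 rose, Myl7 (0.80, SE 0.08, adjusted p = 0.00163), and 15 values were above 0. Groups were separate and higher in DKO for 7 of the 17, as against 8.36% of all genes. The count of 1 became 3 without DKO 2 and 7 with array weights. In those 2 settings the count over all genes also went up, from 481 to 811 and 2003. The mean level of the cardiac list was 7.91 to 7.98 in controls and 8.09 to 8.17 in DKO. Of 8 mesothelial genes, Calb2 (1.28), Upk1b (0.47) and Gpm6a (0.42) rose and 0 fell. The other 5 did not pass, namely Lrrn4 (0.23), Upk3b (0.12), Msln (0.05), Wt1 (-0.02) and Aldh1a2 (-0.06). Values of 5 of the 8 were separate and higher in DKO, and of 0 separate and lower. The mean level of the list was 8.90 to 8.92 in controls and 9.16 to 9.27 in DKO. Calb2, the largest of these changes, was uneven among DKO (SD 0.57, n = 3). Of 11 liver genes, Alb rose (0.96, SE 0.18, adjusted p = 0.0294) and 10 values were above 0. The mean level was 7.13 to 7.28 in controls and 7.29 to 7.57 in DKO. Values of 4 of the 11 were separate and higher in DKO, and of 0 separate and lower. Calls ended without any control for Alb (also without DKO 1), Calb2 and Gpm6a (also without DKO 3), with adjusted p up to 0.136 for Alb, 0.0982 for Calb2 and 0.129 for Gpm6a. The part of these cells in the values of the desmosome genes was not tested.

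For the endothelium, where Jup is also used, the limma fit called 0 of 11 genes, 1 had an unadjusted p below 0.05, and 10 values were above 0 (mean level 9.48 to 9.52 in controls and 9.52 to 9.67 in DKO). For stomach and oesophagus, organs whose epithelia are rich in the same adhesion genes, limma called 0 of 8, and 0 had an unadjusted p below 0.05. The means were 7.60 to 7.66 in controls and 7.60 to 7.72 in DKO. Mean levels in this list ran from percentile 20.9 of all genes (Krt4) to 78.0 (Gata4), with Tff2, Krt5 and Gkn1 at 28.3, 30.9 and 34.2. Little is read from the lack of calls. Of 13 mesenchymal genes, Meox2 rose (0.63, SE 0.05) and 0 fell, with means of 11.16 to 11.19 in controls and 11.14 to 11.22 in DKO. Of 8 smooth muscle genes, 6 fell and 1 rose, with means of 9.47 to 9.60 in controls and 9.08 to 9.27 in DKO. These 7 calls became 2 without control 1, 0 without control 2 or 3 and 3 without DKO 3. For the erythroid, leukocyte and neural lists, limma called 0 of 8, 0 of 11 and 0 of 6. The numbers with an unadjusted p below 0.05 were 2, 5 and 2, and the medians were 0.09, -0.17 and -0.09. Of the 11 leukocyte values, 10 were below 0. In these 3 lists 0, 5 and 2 genes were separate and lower in DKO, and 2, 0 and 0 separate and higher. The counts lower and higher were 7 and 1 for smooth muscle, 1 and 2 for mesenchyme, 0 and 1 for endothelium, and 0 and 0 for stomach and oesophagus. Over all genes the shares were 10.4% and 8.36%.

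The genes whose values over the 6 arrays lay closest to the mean profile of the 9 genes were Mark2, Prr16, Il17b, Ablim1 and Tmem30c. Likeness was the root mean square distance between centred log2 values, which was 0.0091 for Mark2 and 0.017 to 0.021 for the rest. Mark2, a polarity kinase, read 9.81, 9.81 and 9.81 in controls 1 to 3 and 9.60, 9.63 and 9.65 in DKO 1 to 3. Its change was -0.18 (SE 0.05, adjusted p = 0.102), and none of the 5 genes was called. They were picked for their likeness to a profile that is itself lower in DKO, so their direction is no finding.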

How the data were processed

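Lung buds were profiled on 6 Affymetrix MoGene 1.1 ST arrays from 100 ng of total RNA each, per the labels, with groups taken from the sample titles. The deposited table held log2 values for 35556 probes, made by the authors with oligo, RMA and limma, per the submitters' processing notes, with no versions. RMA makes array distributions alike (medians 7.87 to 7.89), so a change common to all genes cannot be seen. The log base was taken from RMA and the value range of 3.42 to 14.27. Of the probes, 21789 name 1 gene in the platform annotation, 1621 several, and 12146 were unnamed here. Symbols were updated through RefSeq (GRCm38.p6; 19856 genes matched), and the brightest probe was used for each of 999 genes with several. No coordinates of probes are given, because no build is named for them.

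Groups were compared with lmFit and eBayes of limma 3.58.1 (R 4.3.3; two-sided, group the sole term), checked on simulated data. Intervals are 95% confidence intervals, and the number of arrays limits precision. The 9 genes and the 17 other lists (190 entries) were chosen with earlier results of these data known. Genes named were Hdac1, Hdac2, the 9 genes, up to 4 called members of each list or else the 3 with the largest change, and the 5 of nearest profile outside predicted and clone names. Other list members were named after their values were seen. Alternatives covered moderation, weights, scaling, dim probes, probe choice and arrays left out.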

Additional observations from a re-analysis of the deposited data

How the results depend on the processing

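Of the 17 alternatives, 16 kept the call of Epcam, and 0 turned the direction of a called gene among those named. The count of 1 called among the 9 genes became 0 with ordinary least squares, 2 with an intensity trend (Spint1 added), 3 with array weights (Cdh1 and Spint1 added) and 3 without the dimmest 50% of probes (Dsg2 and Spint1 added), and it ran from 1 to 2 when single arrays were left out. All 9 genes stayed in without the dimmest 30% of probes, and 8 without the dimmest 50%, where Pkp3 dropped out. Over all genes, the count of 481 became 16 with ordinary least squares, 725 with an intensity trend and 2003 with array weights. It ran from 197 to 811 when single arrays were left out (811 without DKO 2). With all 35556 probes tested, 208 probes passed, unnamed ones included, and 148 of the 481 genes kept their call. The cause of these moves was not tested. The count of 7 genes above the controls relative to the reference, from which nothing is read, was also 7 with both scaling alternatives, the dim-probe filter, mean probes and a reference without Nkx2-1 and Shh. Counting either direction, 7 to 9 genes were separate when single arrays were left out. Same-numbered arrays correlated at -0.06, 0.05 and 0.16 in their deviations from the group means, and differently numbered ones at -0.19 to 0.14. Deviations from a mean of 3 arrays cancel out within a group, so these values cannot decide whether arrays were paired. The labels name no pairs, and the numbers were not taken as pairs in the main fit. With the replicate number as a block, 406 genes and 1 of the 9 were called, the latter being Epcam (adjusted p = 0.0103). The block ended the calls of Snai2, Zeb2, Twist2, Hdac1, Myh11 and Acta2 among the named genes. The called genes of the list linked to Cdh1 repression went from 3 to 0 and the smooth muscle genes called from 7 to 4. Among all named genes, 103 results lost and 25 gained a call in some alternative, and 830 kept their side.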

Other observations

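The genes next to the 9 adhesion genes in the genome were read as well, taking 2 measured genes on each side in RefSeq order. Of the 36 neighbours, limma called 0 and 4 had an unadjusted p below 0.05. With no share over all genes beside it, the count of 4 is not read as a result. Their changes ran from -0.16 (B4galnt4, next to Pkp3) to 0.23 (Cebpd, near Pkp2), with a median of -0.01. Dsg2 and Dsc2 lie in the cluster of desmosomal cadherin genes. There the neighbours Dsg3 (-0.06), Dsg4 (0.09), Dsc3 (0.16), Dsg1b (0.02) and Dsg1c (0.06) did not pass. All of these were dim, as given above. Ttr, the plasma carrier gene beside Dsg2, stood at 0.08.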
